A study of Mus musculus with 8 samples.

Results

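The comparison concerns wild-type mouse CD4 T cells polarized in culture toward Th22 and toward Th17. Its members were the cells of wild-type (WT) genotype in the deposited cell table with at least 500 detected genes, which left 48270 of the 49704 WT cells and of 104660 cells in all. The cells came from 4 libraries of splenic CD4 T cells of female mice aged 10 weeks, harvested at day 3, with 2 libraries on each side. Th22 cultures received FICZ at 400 nM, IL-6 at 40 ng/ml, IL-1b at 20 ng/ml and IL-23 at 20 ng/ml. Th17 cultures received IL-6 at 25 ng/ml and the same doses of IL-1b and IL-23, without FICZ. The conditions therefore differed in FICZ and in the IL-6 dose at once, and these 2 differences cannot be told apart. The remaining 4 libraries came from mice lacking Gpr65 (KO), a proton-sensing G protein-coupled receptor, under the same conditions and served for a comparison of the same contrast. The 1065 WT cells kept within 50 genes of that limit had a median of 1172 unique molecular identifiers (UMIs, which tag captured mRNA molecules), and the 740 cells left out within 50 genes of it a median of 1024.5.

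FICZ is a tryptophan photoproduct and a potent ligand of the aryl hydrocarbon receptor (AHR), a cytosolic transcription factor that moves to the nucleus on ligand binding, pairs with ARNT and binds response elements with the core GCGTG. Its classical targets are the cytochrome P450 enzymes CYP1A1 and CYP1B1, which also clear FICZ, the repressor AHRR and the ADP-ribosyltransferase TIPARP, and the last 2 restrain AHR in turn. Th17 cells make IL-17A and IL-17F under the control of STAT3 among other factors, whereas Th22 cells are marked by IL-22, an epithelial barrier cytokine whose production in T cells depends on AHR.

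Since Th22 cultures received an AHR ligand and Th17 cultures did not, the 250 bases before the RefSeq start site are shown for the genes higher in Th22 that hold the core motif there. The sequences are RefSeq's on GRCm38.p6 and run 5′ to 3′ on the gene's strand. Capitals mark GCGTG, or CACGC where the motif lies on the opposite strand. The windows are chr9:57697363-57697612 (plus strand) for Cyp1a1, chr17:79715062-79715311 (minus) for Cyp1b1, chr13:74292332-74292581 (minus) for Ahrr, chr2:164857709-164857958 (minus) for Pltp, chr16:58669958-58670207 (plus) for Cpox, chr7:45211884-45212133 (minus) for Dkkl1 and chr7:141010745-141010994 (minus) for Ifitm3.
Cyp1a1: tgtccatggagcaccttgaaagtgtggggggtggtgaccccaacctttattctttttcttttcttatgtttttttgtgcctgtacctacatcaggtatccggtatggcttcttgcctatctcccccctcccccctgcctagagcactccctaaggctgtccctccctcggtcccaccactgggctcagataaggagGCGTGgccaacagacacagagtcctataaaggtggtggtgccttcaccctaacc
Cyp1b1: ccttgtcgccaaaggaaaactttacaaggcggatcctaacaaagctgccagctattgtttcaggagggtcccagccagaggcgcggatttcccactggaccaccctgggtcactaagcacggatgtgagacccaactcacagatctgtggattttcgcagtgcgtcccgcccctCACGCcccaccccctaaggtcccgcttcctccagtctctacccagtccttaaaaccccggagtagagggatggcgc
Ahrr: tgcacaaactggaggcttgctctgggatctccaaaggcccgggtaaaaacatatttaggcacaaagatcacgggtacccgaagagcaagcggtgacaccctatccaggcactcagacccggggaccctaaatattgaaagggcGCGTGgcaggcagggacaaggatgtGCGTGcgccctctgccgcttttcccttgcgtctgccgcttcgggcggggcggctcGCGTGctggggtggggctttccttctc
Pltp: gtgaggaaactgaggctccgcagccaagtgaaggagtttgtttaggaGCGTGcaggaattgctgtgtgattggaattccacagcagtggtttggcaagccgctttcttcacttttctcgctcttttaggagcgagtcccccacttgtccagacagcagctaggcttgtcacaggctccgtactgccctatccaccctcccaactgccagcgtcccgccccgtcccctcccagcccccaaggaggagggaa
Cpox: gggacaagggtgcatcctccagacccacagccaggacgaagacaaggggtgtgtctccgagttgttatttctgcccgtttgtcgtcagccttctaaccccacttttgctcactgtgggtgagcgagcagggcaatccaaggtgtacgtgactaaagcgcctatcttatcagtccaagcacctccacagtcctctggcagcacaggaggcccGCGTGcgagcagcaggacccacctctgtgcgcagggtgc
Dkkl1: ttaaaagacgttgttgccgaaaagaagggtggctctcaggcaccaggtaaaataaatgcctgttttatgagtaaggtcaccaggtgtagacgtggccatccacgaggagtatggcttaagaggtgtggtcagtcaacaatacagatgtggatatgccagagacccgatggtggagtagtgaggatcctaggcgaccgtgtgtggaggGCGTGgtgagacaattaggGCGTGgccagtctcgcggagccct
Ifitm3: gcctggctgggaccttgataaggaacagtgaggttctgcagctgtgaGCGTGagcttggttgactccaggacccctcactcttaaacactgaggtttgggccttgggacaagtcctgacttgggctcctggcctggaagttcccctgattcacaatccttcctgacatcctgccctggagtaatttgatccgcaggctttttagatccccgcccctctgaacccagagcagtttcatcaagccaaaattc
The core was found, on either strand, in 7 of the 13 genes that were higher in Th22 and in 1 of 6 lower genes with a window (Odc1, with 3 sites). The share among all 10125 tested genes with a window was 49.6%, close to that of the higher genes, so the short core did not set them apart. Ahrr held 3 sites, the nearest 27 to 23 bases before the start site, and Dkkl1 held 2. The site of Cyp1a1 lay 54 to 50 bases before the start and that of Cyp1b1 76 to 72 bases before it. The longer TTGCGTG was in 1.62% of all windowed genes and in none of the 19 genes that passed and had a window, 0 of 13 higher and 0 of 6 lower. The STAT motif TTCNNNGAA was found in Gpr55 alone among these 19, against 7.13% of all windowed genes. Bases outside these windows were not searched, so a response element farther from the start site would be missed. The letters of a motif in a window are a description and show no binding.

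The WT libraries held 15119 and 11353 cells in Th22 and 11829 and 9969 cells in Th17, with a median of 2627 and 3679 UMIs per cell in Th22 and 2489 and 3847 in Th17. Depth thus differed more between libraries 1 and 2 than between conditions. The labels do not say whether libraries came from separate animals or cultures, and the p-values rest on library-to-library variation, part of which may be technical. Among 48035 distinct WT cell barcodes, 235 occurred in more than 1 library. T cell identity genes were detected for 14 of 14 members in every WT library and summed to 6257 and 6483 CPM in Th22 and 5761 and 5638 CPM in Th17. CPM are UMI counts scaled to the same library total. The marker sums given here were scaled without TMM factors, and single genes over all cells with them. Macrophage and monocyte markers summed to 26.3 and 28.7 CPM in Th22 and 22.4 and 21.6 CPM in Th17 over 8 genes, with 2 of them at 0 in each library. Csf1r held 2 and 0 UMIs in Th22 and 4 and 0 in Th17, whereas Cd68 held 3545 UMIs over the 4 WT libraries. B cell markers summed to 97.9 and 97.5 CPM in Th22 and 105 and 89.0 CPM in Th17 over 10 genes. Ms4a1 was at 0 in all 4 libraries, whereas Ighm held 7194 and Ebf1 3024 UMIs over them. Dendritic cell markers summed to 294 and 283 CPM in Th22 and 341 and 328 CPM in Th17 over 8 genes. Of these, Ccr7 held 28534 UMIs over the 4 WT libraries and H2-Eb1 785, whereas Flt3 held 0 and 0 in Th22 and 0 and 3 in Th17. NK and innate lymphoid markers summed to 121 and 156 CPM in Th22 and 120 and 148.5 CPM in Th17. Gamma-delta T cell markers summed to 15.1 and 21.8 CPM in Th22 and 13.5 and 17.4 CPM in Th17. At least 1 UMI of Trdc, a member of that list, was seen in 1.12% and 2.08% of Th22 cells and 1.02% and 1.77% of Th17 cells. Plasma cell markers summed to 122 and 122 CPM in Th22 and 124 and 112 CPM in Th17. No member of these lists passed the test, and their part in the results was not tested. Gpr65 was at 50.6 to 72.9 CPM in the WT libraries and at 0.887 to 1.58 CPM in the KO libraries.

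In the fit over all 8 libraries, the genes that passed between Th22 and Th17 cells were some AHR targets and a small set of other genes. Of 13412 genes tested with edgeR's quasi-likelihood test on counts summed per library, 20 passed an adjusted p of 0.05, which is 0.149% of those tested. Of these, 13 (0.0969%) were higher in Th22 and 7 (0.0522%) were lower, and each changed by more than 2-fold. The count and this split depended on the fit. The 4 WT libraries alone gave 226 genes, 100 higher and 126 lower, and DESeq2 gave 73 higher and 73 lower. With libraries of equal number matched as a block, 1733 genes passed, 833 higher and 900 lower. The higher genes were Pltp, Ifitm1, Cyp1a1, Ifitm3, Gpr55, Asb2, Cyp1b1, Olfm1, Atp10a, Dkkl1, Rcc1l, Cpox and Ahrr. The lower genes were Il24, Klf4, Tpbg, Fcmr, Odc1, Itga3 and Serpinb5. In none of the 20 did the 2 Th22 libraries overlap with the 2 Th17 libraries, a pattern that 23.9% of all tested genes showed in the higher direction and 22.9% in the lower. At an unadjusted p under 0.05 there were 1183 genes. The count rested on both libraries of each side, since leaving out WT Th17 library 1, WT Th17 library 2 or WT Th22 library 2 left 0 genes by edgeR, with 913, 657 and 654 at an unadjusted p under 0.05, and leaving out WT Th22 library 1 left 4. Under the other alternatives, 10 of the 20 genes kept their call throughout, namely Pltp, Ifitm1, Il24, Cyp1a1, Ifitm3, Gpr55, Asb2, Klf4, Tpbg and Cyp1b1.

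**Figure D1:**
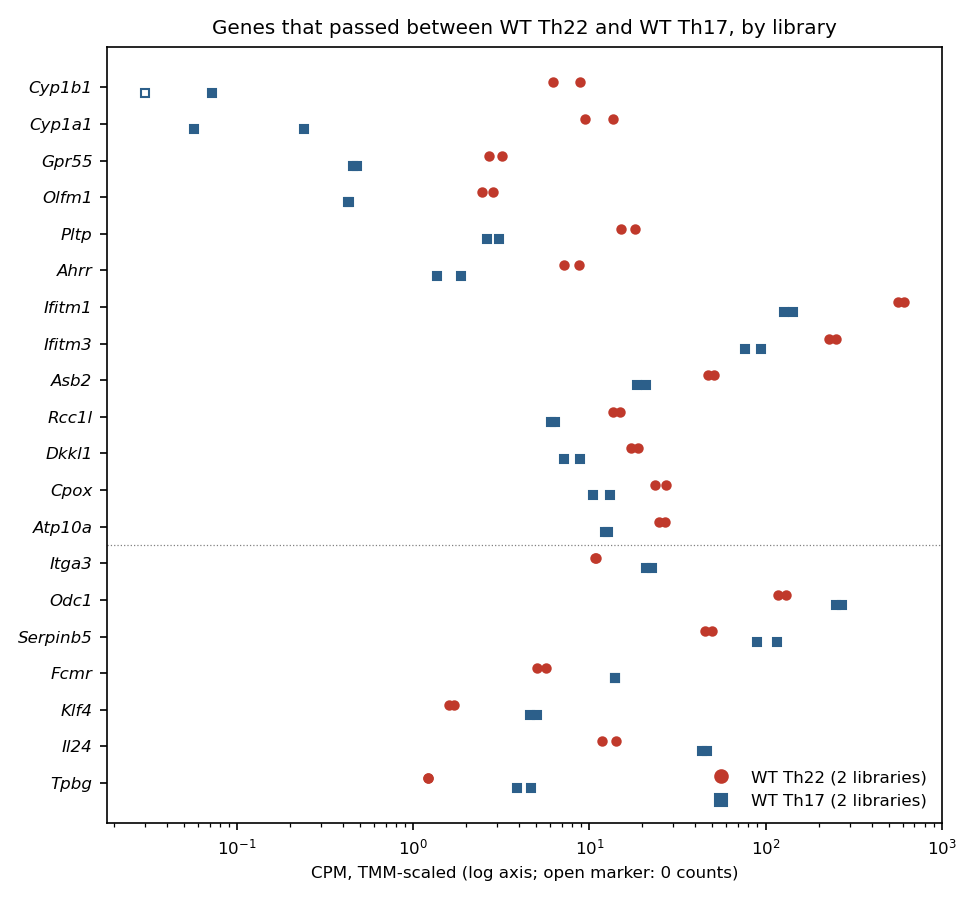
CPM per library (log axis) of the 20 genes that passed between WT Th22 (red circles, 2 libraries) and WT Th17 (blue squares, 2 libraries), ordered by log2 fold change, with the 13 higher genes above the dotted line and the 7 lower genes below it. The sides do not overlap. The 2 Th17 libraries lie apart for Cyp1a1, at 0.0569 and 0.239 CPM. Cyp1b1 had 0 counts in 1 Th17 library (open square) and 0.0716 CPM in the other.

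The classical AHR targets had the highest median log2 fold change of the 48 lists described. The list held 13 genes, of which 6 were tested. Of these 6, 3 passed, all higher in Th22 (Cyp1a1, Cyp1b1 and Ahrr). The median log2 fold change of the 6 was 1.98, against 0.00021 over all tested genes. Cyp1a1 and Cyp1b1, with 12 and 3 UMIs in Th17, entered the test through their Th22 counts. The median and the rank therefore rest in part on the count filter. Among members too low to test, Ugt1a6a held 5 and 3 UMIs in Th22 and 4 and 11 in Th17. Scin held 0 and 0 against 3 and 0, and Lpcat2 0 in each WT library. Cyp1a1, the P450 enzyme that is the standard readout of AHR activity, had 9.49 and 13.6 CPM in Th22, against 0.0569 and 0.239 CPM in Th17 (log2 fold change 6.20 ± 0.49, SE; adjusted p = 0.00676). In UMIs this was 1074 in the Th22 libraries against 12 in the Th17 libraries, a depth-corrected ratio of 73.9 with an exact 95% interval of 42.1 to 143 that covers counting error only. Cyp1b1, another P450 enzyme of the same family, had 6.18 and 8.81 CPM in Th22, against 0 and 0.0716 CPM in Th17 (adjusted p = 0.0216). Its 697 UMIs in Th22 stood against 3 in Th17, a ratio of 192 with an interval of 65.4 to 933. Genes with a library total of 1 or 2 UMIs were depleted in the deposited matrix, with 0 to 42 genes at a total of 1, 15 to 267 at 2 and 454 to 492 at 3 per library, so the 0 of Cyp1b1 may stand for up to 2 UMIs. For both genes the Th22 libraries lay far above the Th17 libraries. Ahrr, the AHR repressor, had 7.15 and 8.74 CPM in Th22, against 1.36 and 1.86 CPM in Th17 (log2 fold change 2.29 ± 0.29; adjusted p = 0.0397). The gene bodies lie at chr9:57687928-57703824 for Cyp1a1 (ENSMUSG00000032315), chr17:79701537-79715061 for Cyp1b1 (ENSMUSG00000024087) and chr13:74211118-74292331 for Ahrr (ENSMUSG00000021575), in the GENCODE annotation of GRCm38.

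Of the members that missed the threshold, Tiparp had 61.6 and 64.5 CPM in Th22, against 23.0 and 22.9 CPM in Th17 (log2 fold change 1.46 ± 0.21; adjusted p = 0.0763). Its WT libraries did not overlap, and it passed when the 4 WT libraries were fitted alone (adjusted p = 0.0005865; 7.496e-17 to 0.647 over its alternatives). Nqo1, a quinone reductase that AHR and NRF2 induce, stayed under 1 CPM, with 0.680 and 0.827 CPM in Th22 and 0.256 and 0.215 CPM in Th17 (adjusted p = 0.176). The receptor itself and its partners did not pass, with 0 of 11 members of the AHR complex and cofactors called and a median log2 fold change of -0.02. Ahr had 8.35 and 9.59 CPM in Th22, against 11.2 and 12 CPM in Th17 (log2 fold change -0.37 ± 0.33; adjusted p = 0.848). Arnt, its partner, had 13.7 and 16.4 CPM in Th22 and 15.8 and 19.4 CPM in Th17, and the sides overlapped. The genes of tryptophan and kynurenine handling, which supply AHR ligands, had 0 of 6 tested members called.

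Ifitm1 and Ifitm3, interferon-induced transmembrane proteins that restrict viral entry, were both higher in Th22 cells. Ifitm1 had 563 and 612 CPM in Th22, against 144 and 127 CPM in Th17 (log2 fold change 2.12 ± 0.14; adjusted p = 0.00351). Ifitm3 had 252 and 229 CPM in Th22, against 94.0 and 76.6 CPM in Th17 (log2 fold change 1.5 ± 0.13; adjusted p = 0.00858). Both genes lie on chromosome 7, at 140967221 to 140969825 for Ifitm1 and 141009586 to 141010770 for Ifitm3, and since the family members are similar in sequence, how reads were split among them is uncertain. Ifitm2, a further member of the family, had 383 and 342 CPM in Th22 and 261 and 203 CPM in Th17 (adjusted p = 0.192). These 2 genes were the only ones of 35 tested interferon response genes to pass, and the list's median log2 fold change was 0.29. Ddx58, which encodes the RNA sensor RIG-I, had 20.7 and 21.7 CPM in Th22 and 13.0 and 13.4 CPM in Th17 (adjusted p = 0.0836).

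The other 8 higher genes belong to no single group. Asb2, the substrate-binding subunit of an E3 ubiquitin ligase, had 47.4 and 51.0 CPM in Th22, against 20.8 and 18.7 CPM in Th17 (log2 fold change 1.32 ± 0.12; adjusted p = 0.0139). Pltp, which encodes phospholipid transfer protein, had 15.1 and 18.2 CPM in Th22, against 2.62 and 3.05 CPM in Th17 (2.55 ± 0.15; adjusted p = 0.00347). Atp10a, a phospholipid flippase, had 24.9 and 26.8 CPM in Th22, against 12.8 and 12.2 CPM in Th17. For these 3 genes the spread within a side was small against the gap between the sides. Cpox, coproporphyrinogen oxidase of heme synthesis, had 23.7 and 27.2 CPM in Th22, against 10.5 and 13.1 CPM in Th17 (1.11 ± 0.14; adjusted p = 0.0357). Of 15 tested iron and heme genes on another list, which did not hold Cpox, 0 passed. Gpr55, a receptor for lysophospholipids, had 2.70 and 3.18 CPM in Th22, against 0.455 and 0.477 CPM in Th17 (2.65 ± 0.23; adjusted p = 0.00949). Rcc1l, a mitochondrial protein, was higher in Th22 by a log2 fold change of 1.19 ± 0.14, Dkkl1, a dickkopf-like protein known from the sperm acrosome, by 1.18 ± 0.13, and Olfm1, which encodes the secreted glycoprotein olfactomedin 1, by 2.61 ± 0.28. Olfm1 stayed under 3 CPM in every WT library. Pltp, Gpr55 and Olfm1 and, among the lower genes, Klf4, Tpbg and Fcmr fell outside the rule for named genes and were chosen after their values were seen.

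The 7 lower genes were led by Il24, a cytokine of the IL-10 family that signals through STAT3. Il24 had 14.1 and 11.8 CPM in Th22, against 43.5 and 46.6 CPM in Th17 (log2 fold change -1.80 ± 0.13; adjusted p = 0.00497), and its gene lies at chr1:130882074-130887454. Odc1, ornithine decarboxylase, the rate-limiting enzyme of polyamine synthesis, had 130 and 117 CPM in Th22, against 253 and 270.5 CPM in Th17 (-1.08 ± 0.12; adjusted p = 0.0262). It was the 1 member of 14 tested polyamine and one-carbon genes to pass. Serpinb5, the serpin known as maspin, had 45.3 and 49.95 CPM in Th22, against 89.3 and 116 CPM in Th17 (-1.11 ± 0.13; adjusted p = 0.0345). Itga3, the integrin alpha 3 subunit of laminin receptors, had 10.9 and 10.8 CPM in Th22, against 22.6 and 20.9 CPM in Th17 (-1.01 ± 0.12; adjusted p = 0.0328). Among 19 tested integrins and adhesion receptors listed, 0 passed; Itga3 was not among them. Klf4, a transcription factor that holds back proliferation in T cells, fell to 1.6 and 1.7 CPM in Th22, against 5.03 and 4.60 CPM in Th17. Fcmr, the Fc receptor for IgM, fell by 1.39 on the log2 scale and Tpbg, trophoblast glycoprotein, by 1.82.

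Il22, the cytokine that names the Th22 condition, did not pass over all 8 libraries. It had 35.4 and 30.0 CPM in Th22, against 10.8 and 10.0 CPM in Th17 (log2 fold change 1.65 ± 0.30; adjusted p = 0.133), and the WT sides did not overlap. In the KO libraries, which enter the estimate of the spread, Il22 had 16.7 and 32.0 CPM in Th22 and 8.11 and 11.5 CPM in Th17. Fitted over the 4 WT libraries alone, Il22 passed (adjusted p = 0.0009215; 1.317e-16 to 0.825 over its alternatives). Il17a had 20.1 and 16.04 CPM in Th22, against 39.9 and 36.1 CPM in Th17 (-1.07 ± 0.17; adjusted p = 0.0897), and it also passed in the 4 WT libraries alone (adjusted p = 0.008981; 4.672e-13 to 0.827 over its alternatives). Il17f had 31.7 and 29.9 CPM in Th22 and 52.9 and 40.5 CPM in Th17 (-0.60 ± 0.38; adjusted p = 0.759). Il21, a cytokine that acts back on Th17 cells, had 45.9 and 50.9 CPM in Th22 and 32.8 and 46.0 CPM in Th17, and the sides overlapped. Of 18 tested Th17 effector genes, Il24 alone passed, and the list's median log2 fold change was -0.32. The gene of the receptor antagonist of IL-1, Il1rn, had 0.855 and 0.615 CPM in Th22 and 2.50 and 2.12 CPM in Th17 (adjusted p = 0.0763). Ifng, Tnf, Il2 and Csf2, cytokines of other helper programs, had sides that overlapped, with adjusted p from 0.706 to 0.969. Il10 was too low to test, with 5 and 5 UMIs in Th22 and 5 and 6 in Th17, as was Foxp3 with 0 and 8 UMIs in Th22 and 2 and 9 in Th17.

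The transcription factors and receptors of Th17 polarization showed no member past the threshold. Of 18 tested Th17 transcription factors, 0 passed, with a median log2 fold change of -0.10. Maf, which drives Il21 and Il10 in Th17 cells, had 37.9 and 46.3 CPM in Th22 and 19.7 and 25.9 CPM in Th17 (0.89 ± 0.22; adjusted p = 0.253), without overlap. Batf, a pioneer factor of the program, had 64.9 and 64.1 CPM in Th22 and 64.6 and 60.3 CPM in Th17. Batf overlapped between the sides. Stat3, the transducer of IL-6 and IL-23, had 60.8 and 64.3 CPM in Th22 and 69.9 and 75.6 CPM in Th17 (adjusted p = 0.600). Its feedback inhibitor Socs3 had 38.7 and 38.2 CPM in Th22 and 40.3 and 38.4 CPM in Th17 (-0.03 ± 0.23; adjusted p = 0.991). Of 24 tested STAT3 and SOCS feedback genes, 0 passed. Hamp, which encodes hepcidin and is known as a STAT3 target in liver, had the largest log2 fold change of these, with 3.02 and 1.95 CPM in Th22 and 18.2 and 24.0 CPM in Th17 (-3.08 ± 0.42; adjusted p = 0.0659). Hamp did not overlap between the sides and passed under 10 of 21 alternatives, among them the 4 WT libraries alone (adjusted p = 0.0009215) and DESeq2 (adjusted p = 3.24e-13, the lowest of the alternatives; the highest was 0.717). Among 18 tested receptors for the polarizing cytokines, 0 passed, with Il6ra at 26.9 and 27.4 CPM in Th22 and 32.8 and 33.3 CPM in Th17 and Il23r at 1.27 and 1.23 CPM in Th22 and 1.62 and 1.598 CPM in Th17.

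Of 48 lists described by counts, 6 held a gene that passed, and several of these 6 share Il24. Among the rest, ATF4 amino acid response genes had 0 of 24 called and a median log2 fold change of -0.37, with Atf3, a stress-induced transcription factor, at 11.2 and 11.6 CPM in Th22 and 24.1 and 25.5 CPM in Th17 (adjusted p = 0.0897). Sterol and fatty acid synthesis genes had 0 of 28 called, with 27 above 0 and a median of 0.18. Fdps, farnesyl diphosphate synthase, had 376 and 348 CPM in Th22 and 293 and 304 CPM in Th17 (adjusted p = 0.396). G2/M genes had 0 of 52 called, with 47 above 0 and a median of 0.17. The share of cells with a deposited G2/M score above 0 was 13.3% and 15.8% in Th22 and 12.6% and 11.6% in Th17. Among cells with both deposited phase scores at or below 0, 25 genes passed, 19 of the 20 among them. Mitochondrial respiration genes had 0 of 34 called with a median of 0.09, glycolysis and hypoxia genes 0 of 26 with -0.10, and immediate early and T cell receptor signal genes 0 of 29 with -0.24. Chemokines and chemokine receptors had 0 of 20 called and a median of -0.55. Among them Ccl5 had 6.73 and 11.7 CPM in Th22 and 30.8 and 33.8 CPM in Th17 (adjusted p = 0.216), and Ccr1 had 1.75 and 2.74 CPM in Th22 and 0.313 and 0.596 CPM in Th17 (adjusted p = 0.0938). Of the naive and memory T cell genes, 0 of 18 passed.

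**Figure D2:**
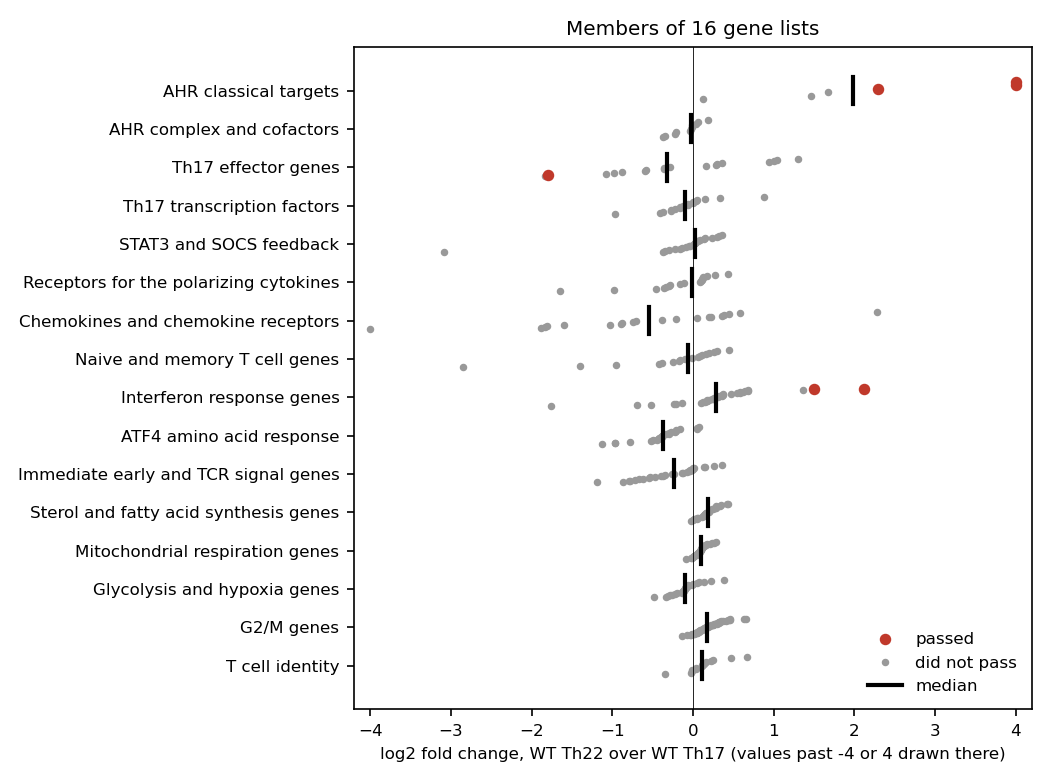
Log2 fold change of WT Th22 over WT Th17 for each tested member of 16 gene lists (points), with the list's median (black bar). Members that passed (red) lie in 3 of the lists shown, 3 among AHR classical targets, 2 among interferon response genes and 1 (Il24) among Th17 effector genes.

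The share of cells with at least 1 UMI was taken after thinning every cell to 1500 UMIs. Counts summed over a library do not separate more expressing cells from more RNA per cell. At this depth the share does not separate them either, since more RNA per cell also raises the chance of a UMI. Thinning kept 88.7% and 95.7% of the Th22 cells and 87.4% and 97.3% of the Th17 cells. The shares were not tested, and the intervals (exact binomial, 95%) cover counting error only. Il22 was seen in 1.66% (1.45 to 1.89) and 1.54% (1.31 to 1.79) of Th22 cells, against 0.513% (0.384 to 0.670) and 0.516% (0.383 to 0.679) of Th17 cells. Il17a was seen in 1.14% and 0.985% of Th22 cells, against 2.36% and 1.73% of Th17 cells, and Il24 in 1.18% and 1.10% of Th22 cells, against 3.45% and 3.77% of Th17 cells. Most cells thus had no UMI of these cytokines in either condition at this depth. Il22 without Il17a or Il17f was seen in 1.11% and 1.02% of Th22 cells, against 0.290% and 0.289% of Th17 cells. Il22 together with either was seen in 0.552% and 0.516% of Th22 cells, against 0.222% and 0.227% of Th17 cells. Il17a or Il17f without Il22 was seen in 3.09% and 2.50% of Th22 cells, against 6.02% and 4.25% of Th17 cells. Among cells thinned to 1500 UMIs with an Il22 UMI, those without an Il17a or Il17f UMI were the larger part in both conditions. In Th17 cells this depended on depth, with 26 and 27 Il22 cells without and 28 and 28 with an Il17a or Il17f UMI after thinning to 2000 UMIs, and 48 and 49 without and 46 and 51 with one in cells not thinned.

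Cyp1a1 was seen in 1.43% and 2.21% of thinned Th22 cells, against 0.0193% and 0.0825% of Th17 cells. Cyp1b1 was seen in 0.880% and 1.25% of Th22 cells and in 0 of 10341 and 0 of 9696 Th17 cells, which allows shares of cells with a UMI of up to 0.0290% and 0.0309% (3 counts of the total; counting error only). Tiparp was seen in 8.66% and 9.45% of Th22 cells, against 3.67% and 3.41% of Th17 cells, and Asb2 in 6.37% and 6.97% of Th22 cells, against 2.70% and 2.44% of Th17 cells. An Il22 UMI and a Cyp1a1 UMI met in 5 and 11 thinned Th22 cells and in 0 and 0 Th17 cells. Without thinning, Il22 was seen in 2.37% and 2.63% of Th22 cells, against 0.795% and 1.003% of Th17 cells, and Cyp1a1 in 2.61% and 4.80% of Th22 cells, against 0.0169% and 0.100% of Th17 cells. No cell type that should lack these genes was set apart in the deposited cell table, and the part of free RNA in these shares was not tested. The level of Il22 in single deposited clusters of the same library ranged widely, as given next.

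**Figure D3:**
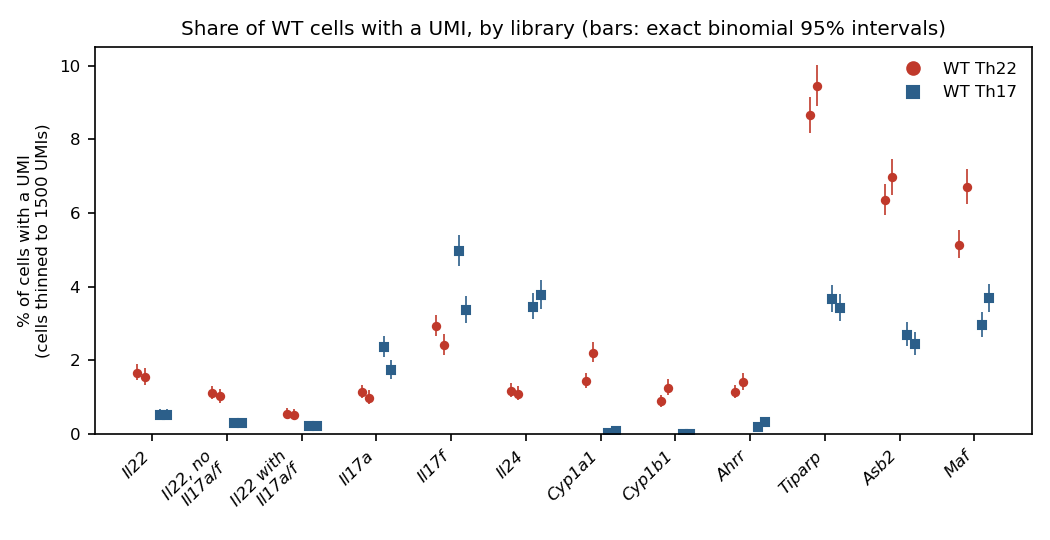
Share of WT cells with a UMI after thinning each cell to 1500 UMIs, for Th22 (red circles) and Th17 (blue squares) libraries 1 and 2 (left to right), with exact binomial 95% intervals. The 2 libraries of a side lie on the same side of the other condition for every gene shown; Il22, Cyp1a1, Tiparp and Asb2 shares lie above those of Th17, and Il17a and Il24 shares lie below.

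The deposited cell table numbers 12 clusters, of which 10 (clusters 0 to 9) had at least 50 cells in each WT library. Values within clusters are a description, since the clusters were made from these genes. Of the genes that passed over all cells, Asb2, Ahrr, Ifitm1, Ifitm3 and Pltp lay higher in both Th22 libraries than in both Th17 libraries in 10 of 10 clusters, and Il24, Odc1 and Itga3 lower in 10 of 10. Tiparp and Maf, which did not pass, also lay higher in 10 of 10. Of all tested genes, the share that lay higher without overlap in clusters 0 to 9 was 22.7%, 17.8%, 18.8%, 17.2%, 14.7%, 13.3%, 15.2%, 16.3%, 12.8% and 11.2%, and the share that lay lower was 22.2%, 25.5%, 24.1%, 19.8%, 16.5%, 16.7%, 16.9%, 15.5%, 18.7% and 10.2%. Cyp1a1 was higher in 9 of 10 clusters, the exception being cluster 9 with 2 UMIs in all. The log2 ratio of Asb2 ranged from 0.85 to 1.76 over the clusters, and its level was highest in cluster 7 at 91.3 CPM and in cluster 2 at 78.9 CPM, each in 1 Th22 library. Cyp1a1 had 12.2 and 17.1 CPM in Th22 in cluster 0, the largest cluster, against 0.0858 and 0.354 CPM in Th17. Its log2 ratio ranged from 1.22 to 4.54 over the clusters. Il22 lay higher in 7 of 10 clusters and overlapped in 3, with log2 ratios from 0.80 to 5.54. It had 171 and 154 CPM in Th22 in cluster 2, against 64.8 and 58.4 CPM in Th17, and 3.74 and 3.22 CPM in Th22 in cluster 0, against 0.0858 and 0.589 CPM in Th17. Cluster 2 also held the highest Il17a level, with 116 and 94.5 CPM in Th22, against 244 and 239 CPM in Th17, and the highest Il24 level, with 65.7 and 51.7 CPM in Th22, against 228 and 229 CPM in Th17. In that cluster Ifitm1 reached 2024 and 2244 CPM in Th22, against 597 and 475 CPM in Th17. Gzmb, a cytotoxic protease, had 64.3 and 66.0 CPM in Th22 in cluster 2, against 33.0 and 29.8 CPM in Th17, but 1804 and 2155 CPM in Th22 in cluster 7, against 2475 and 3014 CPM in Th17. Over all cells Gzmb had 199 and 211 CPM in Th22 and 116 and 154 CPM in Th17 (adjusted p = 0.698).

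**Figure D4:**
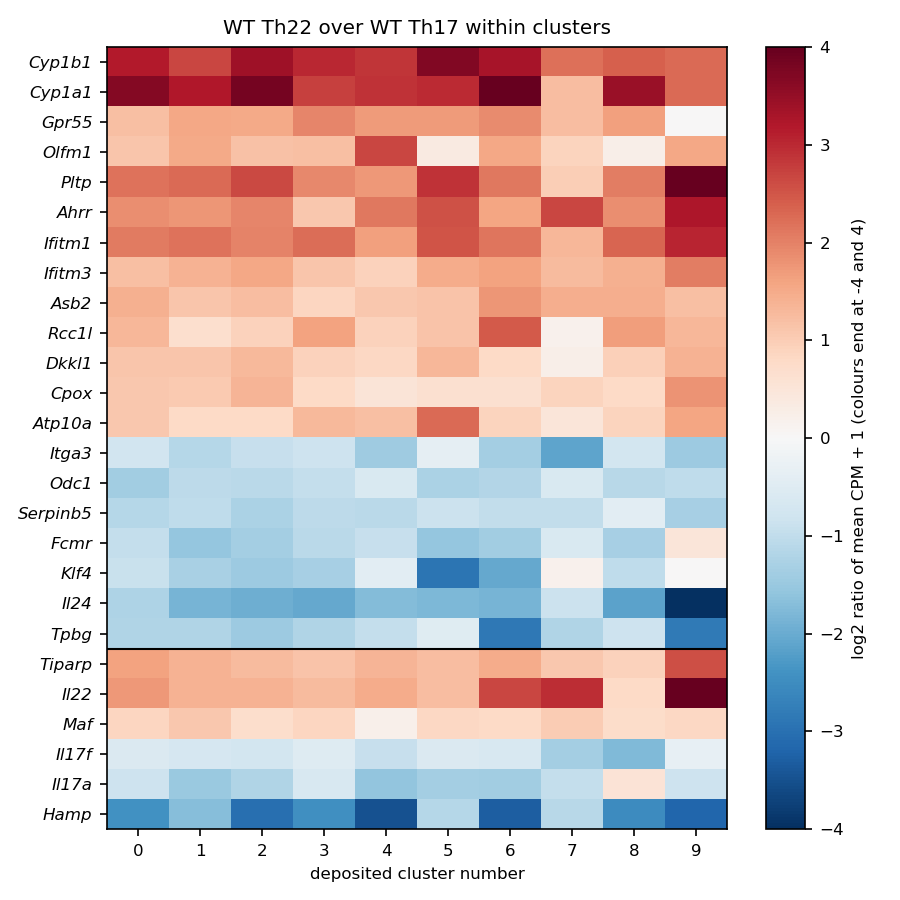
Log2 ratio of mean CPM + 1, WT Th22 over WT Th17, within the 10 deposited clusters with at least 50 cells in each WT library (columns), for the 20 genes that passed (above the line) and 6 that did not (below it). Asb2, Ifitm1 and Tiparp are red in all 10 columns and Il24 and Odc1 blue in all 10, whereas Il17a changes colour in cluster 8.

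The same contrast in KO cells gave 16 genes (0.119% of those tested), 10 higher (0.0746%) and 6 lower (0.0447%) in KO Th22. Of these, 11 had also passed in WT, in the same direction, which is 55% of the 20 in WT and 68.75% of the 16 in KO. The log2 fold change had the same sign in KO for 20 of 20 genes, against 61.7% of all tested genes. Ifitm1 had a log2 fold change of 2.12 in WT and 3.08 in KO, at levels of 563 and 612 CPM in WT Th22 and 157 and 125 CPM in KO Th22, and of 144 and 127 CPM in WT Th17 and 17.8 and 15.6 CPM in KO Th17. Cyp1a1 had 6.20 in WT and 6.61 in KO, Asb2 1.32 and 1.53, Pltp 2.55 and 1.98, and Il24 -1.80 and -1.77, each in the order WT and KO. Il24 itself was at 14.1 and 11.8 CPM in WT Th22 and 3.16 and 3.54 CPM in KO Th22. The 5 genes that passed in KO and not in WT were Tiparp, Il1rn, Serpinb1a, Pdzk1ip1 and Rcbtb2, the last 3 chosen after their values were seen. Serpinb1a, a protease inhibitor, had 107 and 105 CPM in WT Th22 and 100 and 92.9 CPM in WT Th17 (log2 fold change 0.13 ± 0.09), against 83.4 and 81.1 CPM in KO Th22 and 44.4 and 48.4 CPM in KO Th17 (0.83). Pdzk1ip1 had log2 fold changes of -1.62 in WT and -2.31 in KO, and Rcbtb2 of 0.70 in WT and 1.08 in KO. Tested directly, the difference between the WT and the KO contrast passed for 0 genes (0% of those tested) by edgeR, with 566 at an unadjusted p under 0.05 and 6 by DESeq2 among all genes, so a gene called in 1 genotype only was not shown to differ between them.

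**Figure D5:**
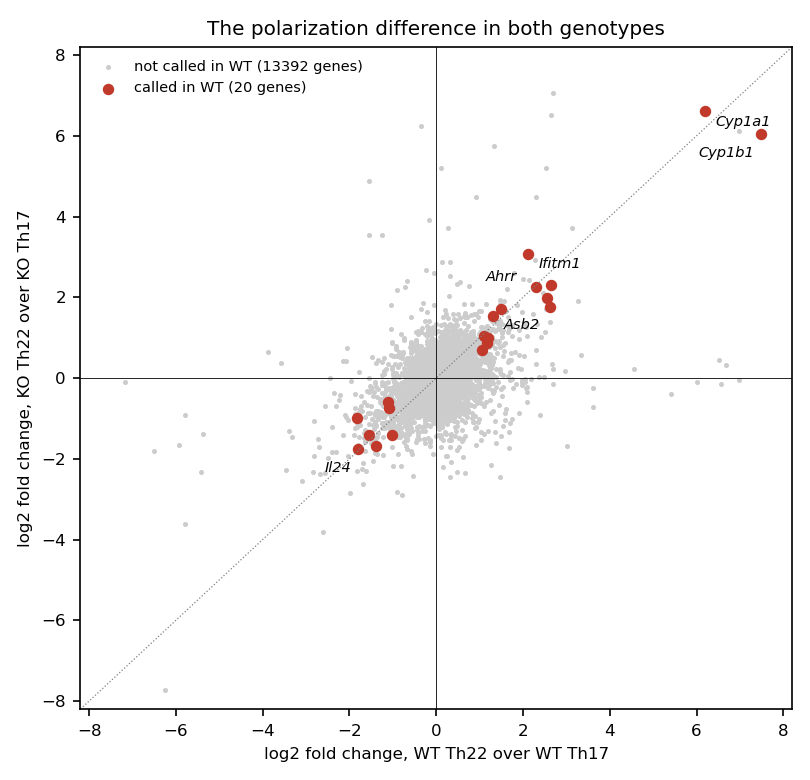
Log2 fold change of Th22 over Th17 in WT (x axis) and in KO (y axis) for the 13412 tested genes, with the 20 that passed in WT in red and the line of equal change dotted. All 20 have the same sign in both genotypes, with Cyp1a1 and Cyp1b1 farthest from 0.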

How the data were processed

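UMI counts per gene symbol and cell were deposited, unnormalized, in a matrix of 8 libraries. The deposited cell table gave each cell's library, genotype, condition, cluster, 2 phase scores and, as computed by the authors, the percent of UMIs from mitochondrial genes. Libraries were made with the 10x Chromium 3' v3 kit, per the labels' protocols; the submitters' processing notes name Cell Ranger 5.0.1, Seurat and mm10 with no role for each. No source used here gives the step that removed low gene totals per library. Counts of cells with at least 500 genes were summed per library (33826527 to 46197194 UMIs in WT) and tested with edgeR 4.0.16 (R 4.3.3; quasi-likelihood F test, two-sided, TMM factors, filterByExpr, robust, Benjamini-Hochberg adjustment, 1 mean for each of 4 groups, 4 residual degrees of freedom). SE is the log2 fold change over the root of F. CPM were computed here and are not per length, so they are not compared between genes. Doublets were not removed. In data simulated for the WT contrast (13220 genes tested), 50 of 50 genes at a log2 change of 2, 43 of 49 at -2, 37 of 50 at 1 and 36 of 49 at -1 were recovered, with 8 of 13022 unchanged genes called. The simulated spread followed each gene's mean level alone and was the same in every library. It held no spread particular to a gene and no deviation shared by libraries of equal number. These counts therefore do not give the share of changes recovered in the real data.

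The comparison, the gene lists and the named genes were chosen with earlier results of these data known. Named genes are those that passed with a mean of at least 10 CPM over the WT libraries and no overlap (up to 15 a direction, which gave 7 higher and 4 lower), at most 4 members of a described list, taken by adjusted p, and a set of AHR, cytokine and Th17 genes. Some genes that this rule takes are left unreported. Symbols matched 1 gene of GENCODE M21 in 98.3% of 16649 cases. Alternatives were other scaling (RLE, upper quartile), DESeq2 1.42.0, no count filter, other cell filters, a depth covariate, 4-library fits, a replicate block and each library left out.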

Additional observations from a re-analysis of the deposited data

How the results depend on the processing

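The WT count was 20 and stayed within 1.5 times that under RLE and upper-quartile scaling, with all deposited cells, in thinned cells, without clusters 7, 9 and 11, without the top 8% of cells by UMIs and without cells with a phase score above 0. Without the count filter it was 38 in WT and 32 in KO. DESeq2 called 146 in WT, 181 in KO and 6 for the difference between genotypes. The 4 libraries of a genotype alone gave 226 genes in WT and 0 in KO (edgeR; 859 at an unadjusted p under 0.05 in KO, and 181 by DESeq2 on 8 libraries). A depth covariate (the library's median UMIs) gave 2 genes in KO and 14 in WT. Leaving out 1 library gave 0 to 28 genes in WT (21 to 28 without a KO library), 6 to 12 in KO and 0 to 0 for the difference. A library left alone on its side was assumed to vary like the others.

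Libraries of equal number deviated together from their group means (r = 0.641 in WT and 0.8784 in KO, over 6339 genes). There were 2 pairs a genotype, and the labels give the libraries of a pair only a number in common. In WT, median UMIs per cell also went with the number, at 2627 and 2489 in libraries 1 and 3679 and 3847 in libraries 2 (Th22 and Th17). In KO they differed more by condition, at 4142 and 3669.5 in Th22 and 2430 and 2354 in Th17. With the replicate block the counts were 1733 in WT, 2269 in KO and 550 for the difference, and in the 4 libraries of a genotype 2558 in WT and 2315 in KO.

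Of 420 values of the 20 genes under alternatives, 327 kept the call, 93 lost it and 0 changed sign. Of the losses, 76 came without a WT library and 17 elsewhere, for Ahrr, Cpox, Fcmr and Olfm1 in thinned cells, Ahrr without clusters 7, 9 and 11, Cpox without the top 8% of cells, Rcc1l without cells with a phase score above 0, Cpox and Serpinb5 without a KO Th17 library, and Atp10a, Dkkl1, Fcmr, Itga3, Odc1, Olfm1 and Rcc1l with the depth covariate. Of 1637 values of 78 other genes followed, 209 were newly called. In the 4 WT libraries alone these took in Maf, Il1rn, Ddx58, Atf3, Ccl5 and Ccr1. The sign turned for Ifng without the top 8% of cells by UMIs (-0.6351 on the log2 scale), for Socs3 in thinned cells (0.02477) and in cells with both phase scores at or below 0 (0.01242), and, with 1 library left out, for Il2 (-0.1345 to 0.6298), Ifng (-0.4313 to 2.122), Tnf (-0.3859 to 0.009008), Csf2 (-0.756 to 0.07262), Batf (-0.004202 to 0.09587) and Socs3 (-0.06959 to 0.003924). None of these 6 genes passed over the 8 libraries. Of 48 share values at other thinning depths or without thinning, 34 moved by more than the spread between the 2 libraries of a side and 0 changed direction. A share of cells with a UMI rises with the UMIs kept per cell, so movement with depth follows from the measure. The Il22 difference was 0.844 points at 1000 UMIs, 1.09 at 1500, 1.41 at 2000 and 1.61 without thinning. The cause of the other changes was not tested.

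Depth limits the low genes: Cyp1b1 rested on 3 UMIs in WT Th17, and its log2 fold change ranged from 6.66 to 11.4 over the alternatives.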
